A study of Mus musculus with 8 samples.

Results

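The interferon response genes are 33 genes that interferons switch on, followed here in haematopoietic stem cells (HSC) that lack E47 and in wild-type HSC. E47 is one of the E proteins encoded by Tcf3, transcription factors known for lymphoid development. Members were found by gene name or older alias on the arrays: 32 of the 33 have a probe, Xaf1 is not analysed here, and all 32 passed the filter on dim probes, among 22938 genes and unnamed probes tested in all. They fall into 24 genes known best as targets of type I interferon, 6 GTPases and 2 further genes known best as targets of interferon gamma.

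The HSC were donor-derived cells, sorted by flow cytometry out of transplanted mice. The 4 groups were KO (E47 knockout) HSC from secondary recipients, WT (wild-type) HSC from secondary recipients, KO HSC from primary recipients and WT HSC from primary recipients, with 2 one-colour arrays each. All groups share transplantation, so none holds cells of an unmanipulated mouse. The sources used here do not give strain, age, sex, the kind of knockout allele or the number of animals. They also leave unsaid whether replicate arrays came from different sorted samples, so the p-values reflect array-to-array spread that may be technical.

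Type I interferons act through the receptor of Ifnar1 and Ifnar2, the kinases Jak1 and Tyk2, and a transcription factor complex that holds Stat2 and Irf9 and binds the interferon-stimulated response element. Interferon gamma acts through the receptor of Ifngr1 and Ifngr2 and on genes that carry the gamma-activated site. In mice, both kinds of interferon are known to drive quiescent HSC into division, and several GTPases of the response are known from defence against intracellular microbes.

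The promoter windows of the members (250 bases before to 50 after the start, RefSeq, GRCm38.p6) show what the genes share outside these arrays. The response element was searched as GAAA, any 2 bases, GAAA, and the gamma-activated site as TTC, any 3 bases, GAA, both on either strand. A window was found for 27 members; Mx1, Mx2, Gbp4, Gbp6, Oas2 and Usp18 had no entry. Of these 27 genes, 15 (55.6%) hold the letters of the response element, against 1064 of 26998 other genes (3.94%). The gamma-activated letters are in 8 of the 27 (29.6%), against 9.53% of other genes, and 4 members, Bst2, Ifitm3, Igtp and Oas1a, hold both. Some matches overlap each other, as in Bst2, Gbp3, Irgm1 and Isg15. A match describes letters, not a bound site, and no match says only that these letters are not in the window.

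**Figure D1:**
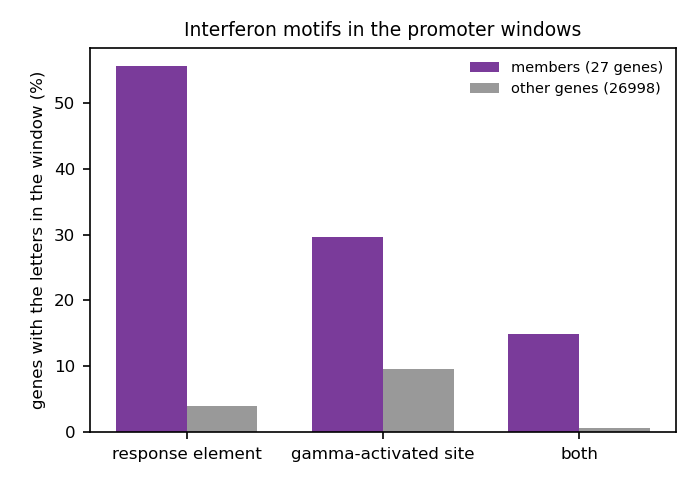
Share of genes, in percent, whose promoter window holds the letters of the interferon-stimulated response element, of the gamma-activated site, or of both, for the members (purple) and for all other genes of the table (grey). The response element letters are in 55.6% of members and 3.94% of other genes.

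These stretches are shown because they carry the element in members whose values are described in this text. Each is 30 bases of the gene's own strand from GRCm38.p6, 5′ to 3′, and capitals mark the match. On the opposite strand the response element reads TTTC, any 2 bases, TTTC.
Ifit1, chr19:34640775-34640804 (+): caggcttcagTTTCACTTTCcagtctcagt
Ifit1, chr19:34640794-34640823 (+): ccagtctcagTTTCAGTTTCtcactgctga
Gbp2, chr3:142620594-142620623 (+): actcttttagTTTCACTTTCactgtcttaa
Gbp3, chr3:142559989-142560018 (+): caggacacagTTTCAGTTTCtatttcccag
Igtp, chr11:58199512-58199541 (+): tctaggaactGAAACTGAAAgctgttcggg
Irgm1, chr11:48871425-48871454 (-): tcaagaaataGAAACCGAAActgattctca
Isg15, chr4:156200865-156200894 (-): aaaggaaaccGAAACAGAAAatagctctgg
Oas1a, chr5:120907526-120907555 (-): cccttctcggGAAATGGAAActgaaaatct
Stat2, chr10:128270266-128270295 (+): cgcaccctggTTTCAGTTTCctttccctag

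The gamma-activated letters are shown for the members in which they lie before the start and which are known targets of interferon gamma, in the same form.
Irf1, chr11:53769914-53769943 (+): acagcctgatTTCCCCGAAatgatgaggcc
Igtp, chr11:58199501-58199530 (+): aactagccatTTCTAGGAActgaaactgaa

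In Igtp the 2 motifs lie side by side, with the gamma-activated letters 36 bases and the response element 24 bases before the start. In Ifit1 the 2 response elements end 94 and 75 bases before the start, in Gbp2 the single element ends 49 bases before it, and in Irf1 the gamma-activated letters end 81 bases before it.

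A level is log2 of the processed spot signal minus the 75th percentile of its array, so 0 is a bright probe of that array, and levels of different probes are not set against each other. A change is a difference of group means of levels, from which the median change over all genes tested was subtracted. That median itself shifted by -0.99 to 0.45 between groups, and limma's p-values refer to the change before this centring. Replicate 2 of both primary groups was dim: 35.4% of spots were well above background on the KO array and 41.9% on the WT array, against 72.2% to 90.7% on the other 6. The lowest signal called well above background there corresponded to a level of -1.20 on the KO array and -2.18 on the WT array, so low members could not be measured on these arrays.

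Labels and cells were checked with marker genes. Of 12 HSC markers, 11 or 12 were well above background on every array other than the dim ones and 6 on each dim array; their median level was 1.82 and -0.08 in KO secondary arrays, 1.69 and 2.48 in WT secondary, 0.36 and -1.45 in KO primary, and -1.27 and -2.16 in WT primary. Of 10 granulocyte and monocyte markers, 7 to 9 were well above background in KO secondary arrays, 6 and 7 in WT secondary, and 8 to 10 in both primary groups. Their summed signal was 7039 and 10727 in KO secondary, 9014 and 4572 in WT secondary, 65060 and 310641 in KO primary, and 72234 and 378262 in WT primary. S100a8, a granulocyte gene, read 80.5 and 2.1 in KO secondary, 2.4 and 2.8 in WT secondary, 11107 and 62443 in KO primary, and 10769 and 70779 in WT primary. Granulocyte transcripts were thus far higher in the primary groups, and the part of this in the secondary against primary values below was not tested. In bulk RNA, fewer cells of a type and less RNA per cell cannot be told apart. All WT arrays shared 1 slide, while KO secondary and KO primary arrays sat on separate slides. Genotype and slide therefore cannot be told apart, nor can slide and recipient in KO cells, whereas secondary against primary in WT cells is a comparison within 1 slide.

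All 32 members were well above background on both WT secondary arrays. In KO secondary arrays 32 and 26 were, in KO primary 27 and 14, and in WT primary 27 and 19. Over the 8 arrays, 13 members were well above background everywhere: Isg15, Isg20, Oas1a, Mx1, Rsad2, Ifi35, Ifi44, Bst2, Ifitm3, Irf7, Irf9, Irgm1 and Irf1. A further 10 were so on 6 or 7 arrays, and 9 on 3 to 5 arrays: Ifit1, Oasl2, Ifih1, Ddx58, Stat2, Gbp2, Gbp4, Gbp6 and Igtp. Oasl2, Gbp4, Gbp6 and Igtp passed the filter on dim probes through WT secondary arrays alone, so a difference between that group and the others was built into their choice. Counts and medians are therefore also given for the other 28 members, a choice made after seeing the data. These 28 still hold Ifit1, Oas2, Oasl1, Usp18, Ifih1, Ddx58, Stat2, Gbp2, Gbp3 and Tap1, which passed through the 2 secondary groups alone. For them the filter favoured higher values in secondary than in primary recipients.

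The median level of the type I members was 0.17 and 0.13 in KO secondary arrays, 0.24 and 0.75 in WT secondary, -0.73 and -1.35 in KO primary, and -0.04 and -0.34 in WT primary. The 6 GTPases had a median of -0.13 and -2.48 in KO secondary, 0.91 and 1.18 in WT secondary, -4.62 and -3.07 in KO primary, and -5.07 and -3.82 in WT primary. Both lists thus stood highest in WT secondary arrays, and the GTPases differed more between groups. However, Gbp4, Gbp6, Igtp and, among the type I members, Oasl2 had to be high in WT secondary arrays to be tested. The other GTPases read 1.13 and 3.34 (Gbp2), -0.23 and 1.59 (Gbp3) and 1.59 and 2.85 (Irgm1) in KO secondary arrays. In WT secondary arrays they read 2.30 and 1.63, 1.45 and 0.72, and 0.51 and 1.99, and the groups overlapped for each. With the dynamin-family GTPases Mx1 and Mx2 added to the 6, the GTPase median was 0.07 and 0.33 in KO secondary and 0.37 and 0.42 in WT secondary. The gap between these groups thus depends on which GTPases are counted. The 2 arrays of a group differed by a median of 2.03 over the members in KO secondary (1.09 over all genes tested), 1.31 in WT secondary (0.82), 1.18 in KO primary (1.71) and 1.17 in WT primary (1.56). In both secondary groups the members therefore varied more between arrays than the typical gene did.

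**Figure D2:**
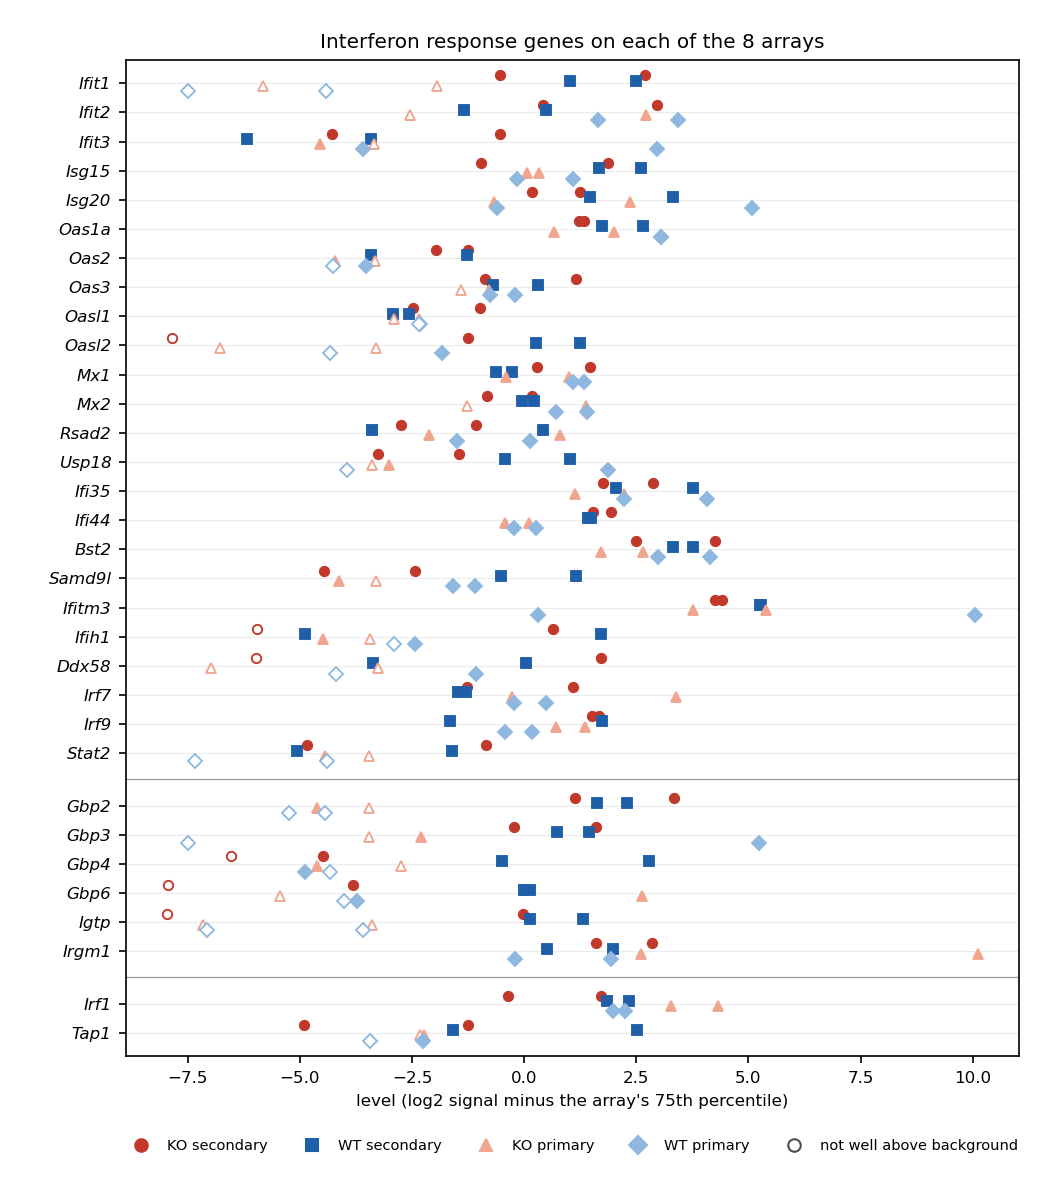
Level of each of the 32 members (rows) on each of the 8 arrays, as log2 signal minus the array's 75th percentile; filled points were well above background, open points were not. Lines separate the type I members, the GTPases, and Irf1 and Tap1; all WT secondary points are filled, and Gbp4, Gbp6, Igtp and Oasl2 reach below -6 in KO secondary cells.

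**Figure D3:**
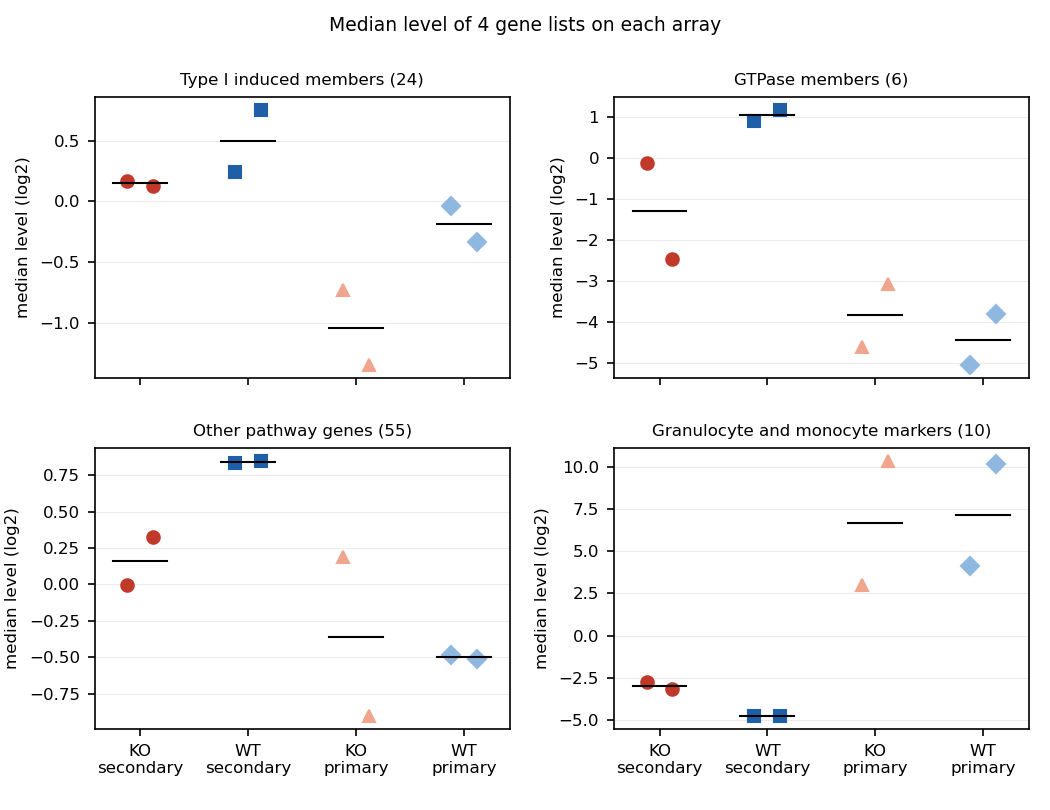
Median level (log2) of 4 lists on each array, with the group mean as a line; 2 points are the 2 arrays of a group, and the panels have their own scales. The GTPases stand at 0.91 and 1.18 in WT secondary arrays, and granulocyte and monocyte markers are high in both primary groups.

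The first question the design poses is what loss of E47 does to HSC. In secondary recipients most members were lower in KO cells: 23 of 32 lay below the median gene, with a median change of -0.91 against 0 for all genes by construction. The type I members had a median of -0.88 (16 of 24 below) and the GTPases of -3.01 (5 of 6 below). Without the 4 members that passed the filter through WT secondary arrays alone, 19 of 28 lay below, with a median of -0.87, and of the 3 GTPases left 2 did. No member passed limma's test at an adjusted p under 0.05, and neither did any gene (0% of 22938). At an unadjusted p under 0.05 stood 4 members, Gbp4, Samd9l, Oasl2 and Gbp6, which is 12.5% of members against 5.37% of all genes. Of these, Gbp4, Oasl2 and Gbp6 had to be high in WT secondary arrays to be tested; without such members, 1 of 28 (3.57%) stood at that p. Without replicate 2 of KO secondary the median was -0.72, and without replicate 1 it was -1.44.

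Gbp4, a guanylate-binding protein, read -4.48 and -6.54 in KO secondary arrays, against -0.50 and 2.79 in WT secondary arrays. Its change was -7.12 (SE 1.44, limma adjusted p = 0.760, n = 2 arrays each), the lowest of the members. The groups did not overlap, and replicate 2 of KO secondary was not well above background. Its probe lies at chr5:105358363-105358422 in mm8, and its first 30 of 60 bases are given so that the measured transcript can be found.
Gbp4 probe: acacattttgaaacaattcctatggagggt

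Gbp6, another guanylate-binding protein, was measured by the probe that the files name Mpa2l, an older name. It read -3.81 and -7.94 in KO secondary arrays, against 0.13 and -0.01 in WT secondary arrays (change -6.39, SE 2.52, limma adjusted p = 0.928). Igtp, an immunity-related GTPase, read -0.03 and -7.97 in KO secondary arrays, against 1.30 and 0.12 in WT secondary arrays (change -5.17, SE 2.63, limma adjusted p = 0.985). In Igtp the first KO array lay beside the WT arrays and the second carried the whole difference. For Gbp6 and Igtp too, replicate 2 of KO secondary was not well above background. Without replicate 2 of KO secondary the changes were -6.03 for Gbp4, -4.27 for Gbp6 and -1.14 for Igtp. The other 3 GTPases did not share the shift: Gbp2 stood at -0.18, Gbp3 at -0.86 and Irgm1 at 0.51, each within its SE. Probes of guanylate-binding genes can bind transcripts of their close relatives, which was not tested.

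Among the type I members, Samd9l, whose human counterpart restrains growth of blood cells, read -2.44 and -4.47 in KO secondary arrays, against -0.52 and 1.15 in WT secondary arrays. The change was -4.22 (SE 1.15, limma adjusted p = 0.836), and the groups did not overlap. Oasl2, an oligoadenylate synthetase-like protein, read -1.26 and -7.86 in KO secondary arrays, against 0.27 and 1.24 in WT secondary arrays (change -5.77, SE 2.24, limma adjusted p = 0.925). Here too the second KO array, not well above background, lay far below the first, and without it the change was -2.41. Usp18, which removes Isg15 from proteins and dampens type I signalling, read -1.46 and -3.26 in KO secondary arrays, against -0.43 and 1.01 in WT secondary arrays (change -3.11, SE 1.86, limma adjusted p = 0.985). Tap1, the peptide transporter of antigen presentation, read -1.24 and -4.90 in KO secondary arrays, against 2.51 and -1.58 in WT secondary arrays. Its arrays overlapped, and the change was -3.99 (SE 1.71, limma adjusted p = 0.975), or -2.11 without replicate 2 of KO secondary.

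Arrays of the genotypes did not overlap in secondary recipients for 14 members. Lower in KO on both arrays were 10 members (31.2%, against 12.3% of all genes): Gbp4, Gbp6, Igtp, Oasl2, Samd9l, Usp18, Oas1a, Isg20, Ifitm3 and Irf1. Higher in KO on both arrays were 4 (12.5%, against 34% of all genes): Ifi44, Mx1, Irf7 and Oasl1. With levels taken relative to the median gene of each array, 13 were lower (15.6% of all genes) and 2 higher (25.2% of all genes). Gbp4, Gbp6, Igtp and Oasl2 are among the 10, and without such members 6 of 28 were lower (21.4%) and 4 higher (14.3%).

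In primary recipients 22 of 32 members lay below the median gene in KO cells, with a median change of -0.74. The type I members had a median of -1.25 (20 of 24 below), whereas the GTPases had 0.57 (2 of 6 below). With the 4 members measured only as a bound set at that bound, the median was -0.57. No member and no other gene passed (0%), and 1 member, Irgm1, stood at an unadjusted p under 0.05 (3.12% of members, against 3.98% of all genes). Without both dim arrays the median was -0.22 (21 of 32 below) and without replicate 2 of KO primary alone -0.13, so the size of the shift rests on the dim arrays.

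Irgm1, an immunity-related GTPase whose loss in mice is known to impair HSC, read 2.61 and 10.12 in KO primary arrays, against 1.93 and -0.20 in WT primary arrays. The change was 5.21 (SE 2.27, limma adjusted p = 0.995), and the value of 10.12 came from a signal of 21813 on the dim KO array. A second probe of Irgm1 read -2.57 and -3.07 in KO primary arrays, against -3.01 and 8.38 in WT primary arrays, the reverse order on the dim arrays. Without both dim arrays the change of the first probe was 0.54. The probes lie at chr11:48708990-48709049 and chr11:48709340-48709399 in mm8, and their first 30 bases are shown because they disagree.
Irgm1 probe 1: gcattgttccactgagggacagggacaagt
Irgm1 probe 2: ggctgatgacatgtgcaattgtgaatgcat

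Samd9l read -4.14 and -3.31 in KO primary arrays, against -1.10 and -1.58 in WT primary arrays (change -2.67, SE 1.15, limma adjusted p = 0.995); the second KO array was not well above background. Oas1a, an oligoadenylate synthetase that activates RNase L, read 2.0 and 0.67 in KO primary arrays, against 3.05 and 3.06 in WT primary arrays. Its change was -2.01 (SE 0.99, limma adjusted p = 0.995), and it was well above background on every array. In both genes the KO arrays lay below both WT arrays.

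Ifit3, an RNA-binding effector, read -4.55 and -3.35 in KO primary arrays, against -3.60 and 2.96 in WT primary arrays, and Ifit2, its relative, read 2.71 and -2.55 in KO primary arrays, against 1.64 and 3.44 in WT primary arrays. Their changes were -3.92 (SE 2.29) and -2.75 (SE 1.88, limma adjusted p = 0.995 for both). Without both dim arrays these were -1.09 for Ifit3 and 0.93 for Ifit2, whose direction turned. The other probe of Ifit2 read -0.55 and 1.94 in KO primary arrays, against -0.68 and -1.03 in WT primary arrays. Irf1, the transcription factor of the interferon gamma response, read 4.31 and 3.27 in KO primary arrays, against 1.98 and 2.25 in WT primary arrays (change 1.39, SE 1.09, limma adjusted p = 0.995), while its other probe read -3.12 and -0.50 in KO primary arrays, against -2.16 and 4.74 in WT primary arrays.

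Arrays did not overlap in primary recipients for 11 members. Lower in KO were 8 (25.0%, against 9.12% of all genes), all of them type I members: Bst2 (tetherin, which holds budding virus at the cell surface), Ifi35, Oas1a, Oas3, Oasl1, Mx1, Samd9l and the RNA sensor Ifih1. Of these, Oas3, Oasl1, Samd9l and Ifih1 were not well above background on the dim KO array. Oasl1 and Ifih1 were not so on the dim WT array either. The order of these genes thus rests in part on readings not well above background. Higher in KO were 3 (9.38%, against 16.9%): Irgm1, Irf1 and Irf9. Gbp3 spanned the widest range, with -2.30 and -3.47 in KO primary arrays, against -7.50 and 5.24 in WT primary arrays. Without replicate 1 of WT primary, which leaves the dim array as the lone WT primary array, assumed to vary like the other groups, its change was -8.27 (SE 1.34, limma adjusted p = 0.0386), and 542 of all genes and unnamed probes passed in that fit (2.36%).

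**Figure D4:**
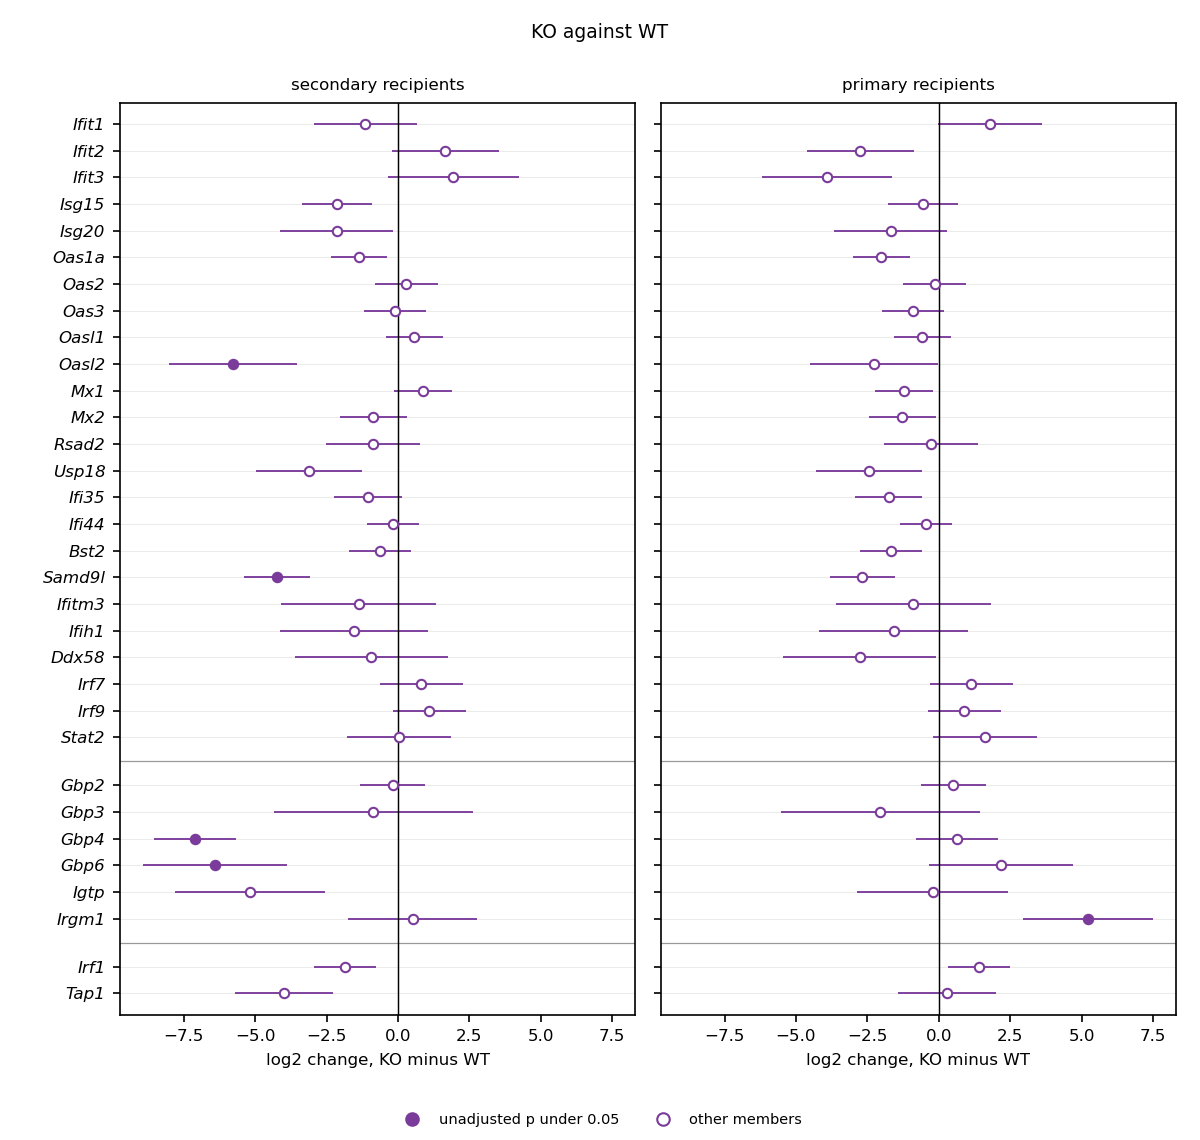
Change of each member in KO against WT cells, as log2 change relative to the median gene with its SE, in secondary recipients (left) and primary recipients (right); filled points have an unadjusted p under 0.05. Samd9l lies left of 0 in both panels, and Gbp4 and Gbp6 lie far left in secondary recipients and right of 0 in primary recipients.

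Over both kinds of recipient, in an additive fit of genotype and recipient, 24 of 32 members lay below the median gene in KO cells, with a median of -1.07 (type I -0.99, 18 of 24 below; GTPases -1.74, 4 of 6 below). No member passed (0% of all genes), and Samd9l and Oasl2 stood at an unadjusted p under 0.05, which is 6.25% of members against 4.68% of all genes. Without the 4 members bound by the filter it was -0.74 (20 of 28 below). The median was -0.45 without both dim arrays and -0.60 without replicate 2 of KO secondary.

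Samd9l was the one member whose 4 KO arrays all lay below its 4 WT arrays (3.12% of members, against 0.488% of all genes). No member lay above on all 4 (1.31% of all genes). This order rests in part on replicate 2 of KO primary, where Samd9l was not well above background. The lowest level so called on that array was -1.20, above the -1.58 of Samd9l on replicate 2 of WT primary. The change of Samd9l was -3.41 (SE 0.80, limma adjusted p = 0.851, and 0.286 to 0.979 over its alternatives), and its probe lies at chr6:3323316-3323375 in mm8.
Samd9l probe: agaacttttctgccatttagataccaactt
Samd9l and Oas1a were the 2 members lower in KO on both arrays within each kind of recipient (6.25%, against 1.3% of all genes). For Samd9l the same limit holds in primary recipients. Oas1a read 1.34 and 1.23 in KO secondary arrays, against 1.73 and 2.64 in WT secondary arrays, and its change over both recipients was -1.64 (SE 0.66). Over both recipients Oasl2 stood at -3.97 (SE 1.59), Usp18 at -2.74 (SE 1.23), Gbp4 at -3.20 (SE 1.62) and Irgm1 at 2.90 (SE 1.69), with limma adjusted p = 0.851 for all 5 genes. The value of Irgm1 was 0.20 with the mean of its probes, 0.53 without both dim arrays and 1.09 without replicate 2 of KO primary alone.

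The difference between the genotype changes of secondary and primary recipients was tested as an interaction. No member passed (0% of all genes), and 2 members, 6.25%, against 3.74% of all genes, stood at an unadjusted p under 0.05. They were Gbp4, whose change was 7.86 lower in secondary recipients (-7.86, SE 2.03), and Gbp6 (-8.68, SE 3.56), both with limma adjusted p = 1.0. Gbp4 read -4.61 and -2.75 in KO primary arrays, against -4.89 and -4.33 in WT primary arrays, with neither dim array well above background, and Gbp6 read -5.45 and 2.64 in KO primary arrays, against -3.72 and -4.03 in WT primary arrays. The interaction was -3.36 (SE 1.54) for Irf1, 5.76 (SE 3.24) for Ifit3, 4.31 (SE 2.66) for Ifit2 and -4.37 (SE 2.41) for Tap1. The GTPases had a median interaction of -4.92 and the type I members of 0.15, and no GTPase passed the interaction test. Gbp4, Gbp6, Igtp and Oasl2 had to be high in WT secondary arrays here too. Without them the members' median interaction was 0.03 (14 of 28 below), and 0 of 28 stood at an unadjusted p under 0.05. Of the 3 GTPases left, 2 lay below the median gene and Gbp3 lay above it, at 1.08.

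The second question is how HSC of secondary recipients differ from those of primary recipients, after a further round of transplantation. In WT cells, on 1 slide, the members were higher in secondary recipients relative to the median gene, whose own change was -0.99. Above it lay 28 of 32, with a median change of 1.68, and all 6 GTPases, with a median of 5.84. The type I members had a median of 1.15 (20 of 24 above). With the 4 members measured only as a bound set at that bound, the median was 1.36. Without the 4 members that passed the filter through WT secondary arrays alone it was 1.21, with 24 of 28 above. Gbp4, Gbp6 and Igtp are among these 4, so their height was built in. The 28 are not free of the filter either, since they hold the members that passed through the 2 secondary groups alone. The 3 GTPases left all lay above, from 1.38 for Irgm1 to 7.79 for Gbp2. Of these, Gbp2 and Gbp3 passed through the 2 secondary groups alone, and only Irgm1 passed in all 4 groups. No gene passed (0%), and 3 members, Gbp2, Ifit1 and Gbp4, stood at an unadjusted p under 0.05 (9.38% of members, against 12% of all genes). Without the 4 members that passed through WT secondary arrays alone, 2 of 28 did (7.14%). These were Gbp2 and Ifit1, which passed the filter through the 2 secondary groups alone.

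Gbp2, a guanylate-binding protein, read 2.30 and 1.63 in WT secondary arrays, against -5.24 and -4.44 in WT primary arrays, where neither array was well above background. It was at least 50.4-fold higher in WT secondary cells, where the primary side is set at the lowest signal called well above background (change 7.79, SE 1.14, limma adjusted p = 0.324). Ifit1, which binds foreign RNA, read 1.03 and 2.49 in WT secondary arrays, against -7.49 and -4.42 in WT primary arrays, again not well above background on either. It was at least 43.7-fold higher (change 8.71, SE 1.81, limma adjusted p = 0.357). Both genes were thus read clearly in secondary and not measurably in primary WT cells. Their probes lie at chr3:142575141-142575200 and chr19:34715303-34715362 in mm8.
Gbp2 probe: gtttctcctgtataatcttaagtgttcctc
Ifit1 probe: cacacattactggaaagatactaagaacca

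Gbp4 read -0.50 and 2.79 in WT secondary arrays, against -4.89 and -4.33 in WT primary arrays (change 6.75, SE 1.44, limma adjusted p = 0.357). Igtp was at least 21.1-fold higher in WT secondary cells (1.30 and 0.12, against -7.08 and -3.60 in WT primary arrays, limma adjusted p = 0.413). Tap1 read 2.51 and -1.58 in WT secondary arrays, against -2.27 and -3.44 in WT primary arrays (change 4.31, SE 1.71), and Oasl2 read 0.27 and 1.24, against -1.83 and -4.32 (change 4.83, SE 2.24). Ifit3 went the other way, with -6.18 and -3.42 in WT secondary arrays, against -3.60 and 2.96 in WT primary arrays (change -3.49, SE 2.29), and its arrays overlapped.

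In WT cells 11 members were higher on both secondary arrays than on both primary arrays (34.4%, against 15.3% of all genes): Gbp2, Gbp4, Gbp6, Igtp, Tap1, Ifit1, Isg15, Ifi44, Samd9l, Oas2 and Oasl2. Lower were 6 (18.8%, against 40.1%), all type I members: Oas1a, Ifit2, Mx1, Mx2, Irf7 and Oasl1. Of these, Oas1a, Mx2 and Oasl1 are also among the members above the median gene. Their levels fell, but by less than the median change of -0.99 that was subtracted. Gbp4, Gbp6, Igtp and Oasl2 are among the 11 and were tested because they were high in WT secondary arrays. Without them, 7 of 28 were higher (25%) and 6 lower (21.4%). Of these 7, Gbp2, Tap1, Ifit1 and Oas2 passed the filter through the 2 secondary groups alone. Among the 11, only Isg15, Ifi44 and Samd9l were well above background on the dim WT array. For Oas2 a WT secondary reading of -3.42 lay below -2.18, the lowest level so called on that array.

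In KO cells too the members were higher in secondary recipients relative to the median gene, whose own change was -0.52. Their median was 1.14, with 25 of 32 above it (type I 1.27, 22 of 24 above, and GTPases 0.25, 3 of 6 above). Without replicate 1 of KO secondary the median was 0.51. No gene passed (0%), and 3 members, Gbp2, Irf1 and Ifit1, stood at an unadjusted p under 0.05 (9.38%, against 6.03% of all genes). Of these, Gbp2 and Ifit1 passed the filter through the 2 secondary groups alone, which favoured higher values there. Gbp2 read 1.13 and 3.34 in KO secondary arrays, against -4.63 and -3.47 in KO primary arrays (change 6.81, SE 1.14, limma adjusted p = 0.690). Ifit1 read -0.53 and 2.68 in KO secondary arrays, against -5.81 and -1.95 in KO primary arrays, neither well above background. It was at least 18.1-fold higher (change 5.48, SE 1.81, limma adjusted p = 0.716). These 2 genes thus took the same course in KO as in WT cells.

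Irf1 was lower in KO secondary cells, with 1.72 and -0.37, against 4.31 and 3.27 in KO primary arrays (change -2.59, SE 1.09, limma adjusted p = 0.716). Ifi44 read 1.53 and 1.94 in KO secondary arrays, against -0.42 and 0.10 in KO primary arrays (change 2.42, SE 0.92), and Oas2 read -1.24 and -1.96, against -4.21 and -3.32 (change 2.69, SE 1.11). Both KO secondary readings of Oas2 lay below -1.20, the lowest level called well above background on the dim KO array. The order of Oas2 against that array was thus not measured. Irgm1 read 1.59 and 2.85 in KO secondary arrays, against 2.61 and 10.12 in KO primary arrays (change -3.62, SE 2.27); the mean of its probes turned this to 0.20. Without overlap, 6 members were higher in KO secondary arrays (18.8%, against 12.7% of all genes), namely Gbp2, Gbp3, Ifit1, Ifi44, Irf9 and Oas2, and 1 was lower, Irf1 (3.12%, against 28.4%). Of the 6, Gbp2, Gbp3, Ifit1 and Oas2 passed the filter through the 2 secondary groups alone. With levels relative to the median gene 6 were higher (12.6% of all genes) and 2 lower (27% of all genes).

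Over both genotypes 27 of 32 members lay above the median gene in secondary recipients, with a median change of 1.40 (GTPases 3.16, type I 1.20). No gene passed (0%). At an unadjusted p under 0.05 stood 4 members, Gbp2, Ifit1, Ifi44 and Oas2, all higher, which is 12.5% of members against 19.2% of all genes. Of these, Gbp2, Ifit1 and Oas2 passed the filter through the 2 secondary groups alone, which favoured this direction. Gbp2 came nearest to the threshold: its change was 7.27 (SE 0.75, limma adjusted p = 0.0578), with 4 of 4 secondary arrays above 4 of 4 primary arrays. It passed with quantile normalization (0.0123), with the mean of all probes of a gene (0.0380) and with slide as a random block (0.0430), fits in which 207, 30 and 45 of all genes and unnamed probes passed. Gbp2 has no other probe here, so the mean of probes left its own values unchanged. In the fit with slide the correlation within slides was estimated at -0.096, and slide cannot be told apart from recipient in KO cells. The limma adjusted p of Gbp2 over all alternatives was 0.0123 to 0.260. Ifit1 stood at 7.07 (SE 1.29, limma adjusted p = 0.105), and without both dim arrays at 8.57 (SE 1.19, limma adjusted p = 0.0810), against 7.53 (SE 0.82, 0.0531) for Gbp2, a fit in which 89 of all genes and unnamed probes passed. These fitted values are no measured folds, since Ifit1 was not well above background on any primary array and Gbp2 on 1 of 4; the bounds given for KO and WT cells hold.

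Ifi44, an interferon-induced protein well above background on every array, read 1.53 and 1.94 in KO secondary and 1.43 and 1.49 in WT secondary arrays, against -0.42 and 0.10 in KO primary and 0.26 and -0.24 in WT primary arrays. The spread within groups was small beside the change of 2.40 (SE 0.61, limma adjusted p = 0.249). Oas2, an oligoadenylate synthetase, stood at 2.59 (SE 0.74, limma adjusted p = 0.25). It was not well above background on either dim array, so this change rests in part on such readings. The transcription factors Irf1 and Irf7 stood at -0.85 each (SE 0.89 and 0.96). Without overlap over all 8 arrays, 3 members were higher in secondary recipients, Gbp2, Ifit1 and Ifi44 (9.38%, against 3.16% of all genes), and none was lower (0 of 32, against 12.7% of all genes). For Gbp2 and Ifit1 the filter favoured this direction, whereas Ifi44 passed it in all 4 groups.

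**Figure D5:**
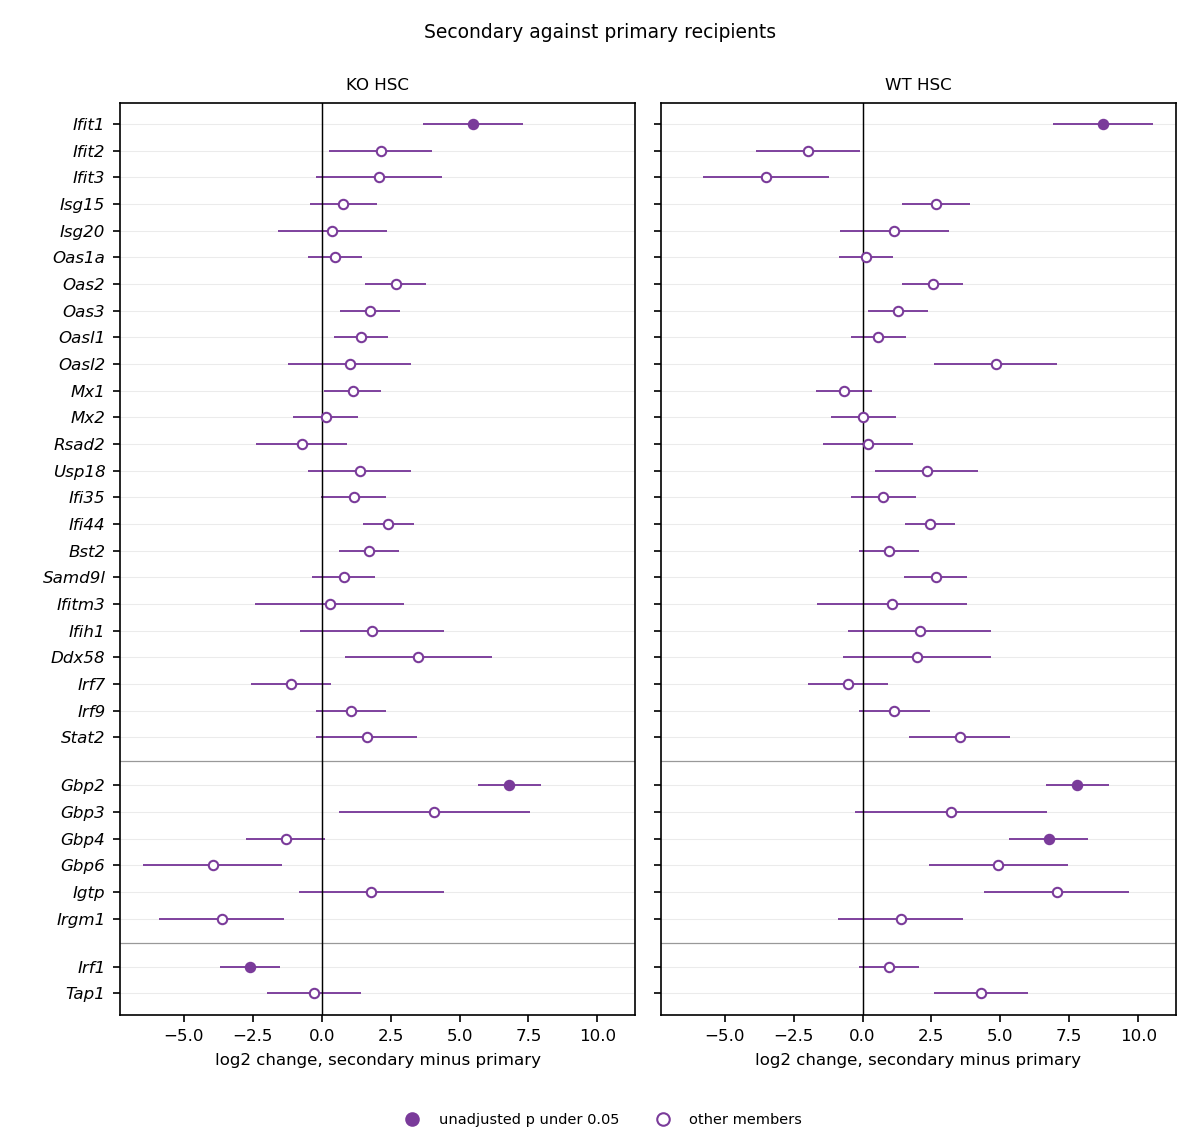
Change of each member in secondary against primary recipients, as log2 change relative to the median gene with its SE, in KO cells (left) and WT cells (right); filled points have an unadjusted p under 0.05. Gbp2 and Ifit1 lie far right of 0 in both panels, and Gbp4 and Gbp6 lie right of 0 in WT cells and left of 0 in KO cells.

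The promoter letters were set beside these changes as a description. In WT cells the median change in secondary against primary recipients was 1.98 for the 15 members with a response element (14 above the median gene) and 1.14 for the 11 tested members with a window but no such letters (9 above). In KO cells the medians were 1.76 with the letters and 1.01 without. For KO against WT in secondary recipients they were -0.88 with and -1.05 without. They were -0.89 with and -0.58 without in primary recipients, and -1.10 with and -0.50 without over both.

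The remaining members are given by their levels. Bst2 read 2.49 and 4.25 in KO secondary, 3.76 and 3.32 in WT secondary, 2.64 and 1.70 in KO primary, and 4.15 and 2.98 in WT primary arrays. Isg15, the ubiquitin-like modifier, read 1.87 and -0.96 in KO secondary, 2.60 and 1.68 in WT secondary, 0.06 and 0.32 in KO primary, and 1.1 and -0.16 in WT primary arrays. The files place the Isg15 probe on another chromosome than the gene, so its values are uncertain. Both were read on every array, and their KO and WT arrays overlapped in secondary recipients. Ifitm3, which blocks viral entry at membranes, read 4.41 and 4.26 in KO secondary arrays, against 5.27 and 5.25 in WT secondary arrays, where the groups did not overlap, but 5.38 and 3.77 in KO primary arrays, against 0.31 and 10.05 in WT primary arrays. The RNA sensors Ifih1 and Ddx58 changed sides between replicates: Ddx58 read 1.70 and -5.98 in KO secondary arrays, against -3.36 and 0.05 in WT secondary arrays. Of the factor that binds the response element, Irf9 read 1.5 and 1.67 in KO secondary arrays, against 1.73 and -1.66 in WT secondary arrays, and Stat2 read -0.84 and -4.84, against -5.06 and -1.61. Rsad2 (viperin), Isg20 (an exonuclease), Ifi35, Oas3 and Mx2 had changes between -2.13 and -0.12 in KO against WT cells of secondary recipients and between -1.75 and -0.26 in primary recipients. Other probes of Rsad2 went the opposite way. Another probe read -2.01 and -2.17 in KO secondary arrays, against -4.41 and -3.43 in WT secondary arrays, and -2.79 and 3.52, against -1.29 and -2.28, in primary recipients. A further probe read -0.34 and -2.39, against -5.51 and -0.37, in secondary recipients and -5.21 and 0.96, against -4.72 and -3.82, in primary recipients.

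Of 57 other genes of the pathway, ligands, receptors, kinases, sensors and further targets, 53 were tested and 0 passed in any comparison. Their median change in KO against WT was -0.68 in secondary recipients (36 of 53 below) and 0.06 in primary recipients (25 below), beside -0.91 and -0.74 for the members. In secondary against primary recipients it was 1.14 in WT and 0.32 in KO cells, where 34 of 53 lay above in each. Those at an unadjusted p under 0.05 in KO against WT were Ifna4 (4.64, SE 1.31) and Ikbke (-4.69, SE 1.73) in secondary recipients, and Jak1 (4.66), Ifi47 (2.53), Trim25 (-3.37) and Ly6a (-5.23) in primary recipients. These are 3.77% of pathway genes in secondary recipients, against 5.37% of all genes, and 7.55% in primary recipients, against 3.98%. Over both recipients it was Ly6a alone (-4.28), which encodes the HSC antigen Sca-1 and is also an HSC marker here.

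In secondary against primary recipients over both genotypes, 6 pathway genes were higher at an unadjusted p under 0.05: the guanylate-binding protein Gbp7 (6.48, SE 0.95, limma adjusted p = 0.0745), the RNA-activated kinase Eif2ak2 (5.87, SE 0.91, 0.0821), Ifi27 (5.30, SE 0.84, 0.0880), Trim25 (4.22), Iigp1 (3.94) and Ifi47 (3.40). Lower were Zbp1 (-2.16), Tlr9 (-1.63) and Ifna2 (-1.52). Together these are 17% of pathway genes, against 19.2% of all genes. Gbp7 read 995.1 and 9545 in signal in KO secondary and 3086 and 2582 in WT secondary arrays, against 20.5 and 4.4 in KO primary and 19.8 and 2.4 in WT primary arrays. As for Gbp2, all 4 secondary arrays lay above all 4 primary arrays. Within WT cells alone 10 pathway genes stood at that p, 8 of them higher and led by Ifi27 (6.82), Eif2ak2 (7.30) and Ifi47 (6.22), and within KO cells 7, 6 of them higher and led by Trim25 (6.03) and Gbp7 (6.19). That is 18.9% of pathway genes in WT cells, against 12% of all genes, and 13.2% in KO cells, against 6.03%. In the interaction Ifna4 (6.39), Ifi47 (-5.40) and Trim25 (3.75) stood at that p, each with limma adjusted p = 1.0.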

How the data were processed

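RNA of 8 samples was amplified by a global PCR of cDNA and labelled with Cy3, per the labels' protocols. The deposited scanner files hold spot intensity on a linear scale, background-subtracted by Agilent Feature Extraction 10.5.1.1 (design 014868, probe positions in mm8, per the file headers). In the deposited matrix, values are a ratio to the median intensity of that array (every column had a median of 1) and was used as an alternative. Outlier spots were left out, spots of a probe were averaged, and levels were obtained by subtracting each array's 75th percentile of log2 intensity. Probes were named through accessions; the probe the files call Gbp6 is Gbp7 by its accession. A gene took its brightest probe and was tested where a probe exceeded background on both replicates of some group. Comparisons used limma 3.58.1 under R 4.3.3 (4 residual degrees of freedom, 5 in the additive fit), with Benjamini-Hochberg adjustment over 22938 features. The procedure was tested on simulated data. The members and lists were chosen with earlier results of these data known. Members described in full are the 6 of lowest p per comparison among those well above background on at least 4 arrays; Igtp and Gbp3 were added after their values were seen. Of other genes, those at an unadjusted p under 0.05 are named. The number of arrays limits the precision.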

Additional observations from a re-analysis of the deposited data

Results flagged for a closer look

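In 3 members both KO arrays lay on one side of both WT arrays in secondary recipients and on the other side in primary recipients. For Mx1 the KO against WT change in secondary recipients exceeded that in primary recipients by 1.99 (SE 1.44), for Oasl1 by 1.05 (SE 1.40), and for Irf1 the difference was -3.36 (SE 1.54). Mx1 read 0.29 and 1.47 in KO secondary arrays, against -0.63 and -0.27 in WT secondary arrays, and 0.99 and -0.41 in KO primary arrays, against 1.34 and 1.09 in WT primary arrays. Oasl1 read -0.98 and -2.48 in KO secondary arrays, against -2.93 and -2.58 in WT secondary arrays, and -2.35 and -2.91 in KO primary arrays, against -2.33 and -2.34 in WT primary arrays. It was not well above background on either dim array, so its order in primary recipients is uncertain. These members were picked by the order of their arrays, and as an interaction none passed limma's test (adjusted p = 1.0 for each).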

How the results depend on the processing

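Counts of members past the threshold stayed at 0 under every alternative run except that Gbp2 passed for secondary against primary over both genotypes with quantile normalization (1 member; 0.902% of all features), the mean of all probes (1; 0.131%) and slide as a random block (1; 0.196%), and Gbp3 for KO against WT in primary recipients without replicate 1 of WT primary (2.36% of all features), so that leaving out single arrays gave 0 to 1. Since Gbp2 has no other probe here, its values were the same with the mean of all probes, and only the rest of the fit differed. The members' median kept its sign in every alternative run for KO against WT and for secondary against primary. Without the 4 members bound by the filter, a choice made after seeing the data, it was -0.74 for KO against WT over both recipients and 1.21 for secondary against primary in WT cells. With normexp it was -0.25 for KO against WT in primary recipients, -0.57 over both recipients, and, for secondary against primary, 0.85 in KO cells and 1.13 over both genotypes. Without the dim arrays it was -0.22 in primary recipients and -0.45 over both; with the probes read on all 8 arrays alone, -0.44 for KO against WT over both recipients and 1.03 for secondary against primary over both genotypes. The mean of all probes gave 0.86 in KO cells, and quantile normalization 1.71 over both genotypes. Leaving out single arrays gave -0.86 to -0.13 for KO against WT in primary recipients, -1.44 to -0.72 in secondary, -1.25 to -0.60 over both, and for secondary against primary 0.51 to 1.54 in KO, 1.5 to 1.92 in WT and 1.13 to 1.65 over both genotypes. With Mx1 and Mx2 among them, the GTPase median of KO minus WT in secondary recipients moved to -0.20, against -2.34 without, and of secondary minus primary in WT cells to 3.50, against 5.48.

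Signs turned for Irgm1 (-0.11 for KO against WT in primary recipients and 0.20 for secondary against primary in KO cells) and Irf1 (-1.02 in primary recipients) with the mean of all probes. For Ifit2 in primary recipients the sign turned with the probes read on all arrays (1.27), without the dim arrays (0.93) and when single arrays were left out (-5.62 to 0.45). The Ifit2 interaction turned to -0.36 with the probes read on all arrays. Over both genotypes signs turned for Irf1 with normexp (0.14) and Irf7 without the dim arrays (0.015). For Irf1 with the mean of probes, the turn follows from probes that disagree. The probes of Irgm1 disagree as well, and another of its probes, well above background on 0 arrays, entered the mean. Its sign turned only once the median change over all genes was subtracted. That was 0.31 for KO against WT in primary recipients and -0.49 for secondary against primary in KO cells. With the probes read on all arrays, Ifit2 was represented by its other probe. For the rest the cause was not tested. The replicate numbers showed no pairing: deviations of same-numbered arrays correlated at -0.026 to 0.150, and with the replicate block 0 members passed in every comparison (lowest adjusted p 0.0715).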
